A study of Mus musculus with 12 samples.

Results

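The IL-6 family cytokine and STAT3 axis was examined in primary mouse oligodendrocytes (OLs) through 10 genes. These were the cytokines Il6 and Lif, the receptor chains Il6ra, Il6st, Lifr and Osmr, the kinases Jak1 and Jak2, the transcription factor Stat3 and the feedback inhibitor Socs3. They were chosen by symbol, and all 10 were found among the 56860 named genes of the count table. Of these, 9 had enough counts to be tested, and Il6 did not. RNA-seq was performed on 6 libraries treated with a control siRNA (siNC) and 6 treated with an siRNA against Egr2 (siEgr2), harvested 48 h later, to ask what lowering this zinc finger transcription factor of myelinating cells does to the transcriptome. The cells came from C57BL/6J mice. They were taken with an antibody against O4, a surface antigen of immature OLs, from the cortex of newborn animals according to the methods, while the labels give the medial prefrontal cortex. Cells of both groups were first expanded with PDGF-AA and then matured with insulin, triiodothyronine and ciliary neurotrophic factor. The last of these, the product of Cntf, is itself an IL-6 family cytokine, so controls and treated cells alike were grown with a ligand of this axis. The siNC sequence was scrambled, the methods in places call the siEgr2 reagent a plasmid, and neither the labels nor the methods say whether the 6 libraries of a group came from separate cultures or animals. The p-values therefore measure the spread between libraries, which may be technical.

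Most cytokines of the IL-6 family signal through the shared receptor chain gp130, the product of Il6st. Il6 binds first to Il6ra, Lif brings gp130 together with Lifr, and oncostatin M pairs it with Osmr in mice. The paired chains activate the kinases Jak1, Jak2 and Tyk2, which phosphorylate Stat3. Phosphorylated Stat3 enters the nucleus and induces Socs3 among other genes, and Socs3 in turn shuts off gp130 signaling. In the nervous system this pathway is known for driving astrocyte formation and reactive gliosis, and Lif and ciliary neurotrophic factor are known to promote the survival and maturation of OLs. Activation of Stat3 is a change in the protein, which RNA-seq does not measure.

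Egr2, the target, measured 5.35 ± 1.27 CPM (counts per 1000000 after scaling by the TMM method, the unit of all levels here) in siNC and 3.77 ± 1.01 CPM in siEgr2 (mean ± SD over 6 libraries, as in all such values). The log2 fold change was -0.51, and edgeR's quasi-likelihood (QL) test with Benjamini-Hochberg adjustment gave an adjusted p of 0.0981, so the lower level of the target itself did not pass the test. Scaled by library size only, the value was -0.70 with an adjusted p of 0.0144 (edgeR QL), where the median of all tested genes was itself -0.18. Under no other alternative tried was the adjusted p below 0.05. The lowest of these was 0.0584 (edgeR QL), with the replicate number added to the fit. The log2 fold change of Egr2 lay between -0.60 and -0.39 with 1 library left out. The libraries held 28682946 to 39383014 counts in siNC and 8034251 to 16683677 in siEgr2, and 18S ribosomal RNA took 0.142% to 1.05% and 10.5% to 16.5% of them. Depth and ribosomal share thus differ between the groups without overlap, and their part in the results cannot be told apart from that of the treatment. A gene was counted as called by the thresholds given with the members, which 7.72% of all tested genes passed. Among the markers of OLs, 0 of 10 were called in either direction, and all 10 were measured, with summed levels of 8429 to 9508 CPM in siNC and 7989 to 8314 CPM in siEgr2. Of the 9 astrocyte markers 5 were called lower, and their summed level was 8125 to 8828 CPM in siNC and 5174 to 5874 CPM in siEgr2. Of the 6 precursor markers 2 were called higher, with sums of 2875 to 3070 and 3445 to 3641 CPM. The 10 microglial markers summed to at most 6.96 CPM in any library, and Aif1, Itgam and Siglech had no count. Of the tested markers, 0 of 3 for microglia, 0 of 6 for neurons, 1 of 3 for endothelial cells and 2 of 6 for fibroblasts and pericytes were called, the called ones lower. The sums of the neuronal, endothelial and pericyte lists were 22.8 to 26.4, 25.9 to 35.0 and 588 to 966 CPM in siNC and 26.55 to 30.65, 27.5 to 38.03 and 605 to 729 CPM in siEgr2. The cultures thus held RNA of OLs and astrocytes. At lower summed levels they also held the markers of fibroblasts and pericytes, whose sums overlapped between the groups. In such bulk RNA, fewer cells of a type and less RNA per cell cannot be told apart.

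Of the 9 tested members, 3 fell after siEgr2, namely Lif, Il6ra and Osmr, and 0 rose. Calls required both an adjusted p below 0.05 and a log2 fold change beyond 0.5 in size. Of all 16600 tested genes 7.72% were called, 5.08% lower and 2.63% higher. By the adjusted p alone, 6 members passed, all lower, against 19.9% of all genes, and in 4 members every siEgr2 library lay on the same side of every siNC library, against 11.2%. The median log2 fold change was -0.14 over the tested members and 0.0046 over all tested genes. The called members were 1 ligand and 2 receptor chains, while the kinases, Stat3 and Socs3 differed by less than the fold threshold.

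**Figure D1:**
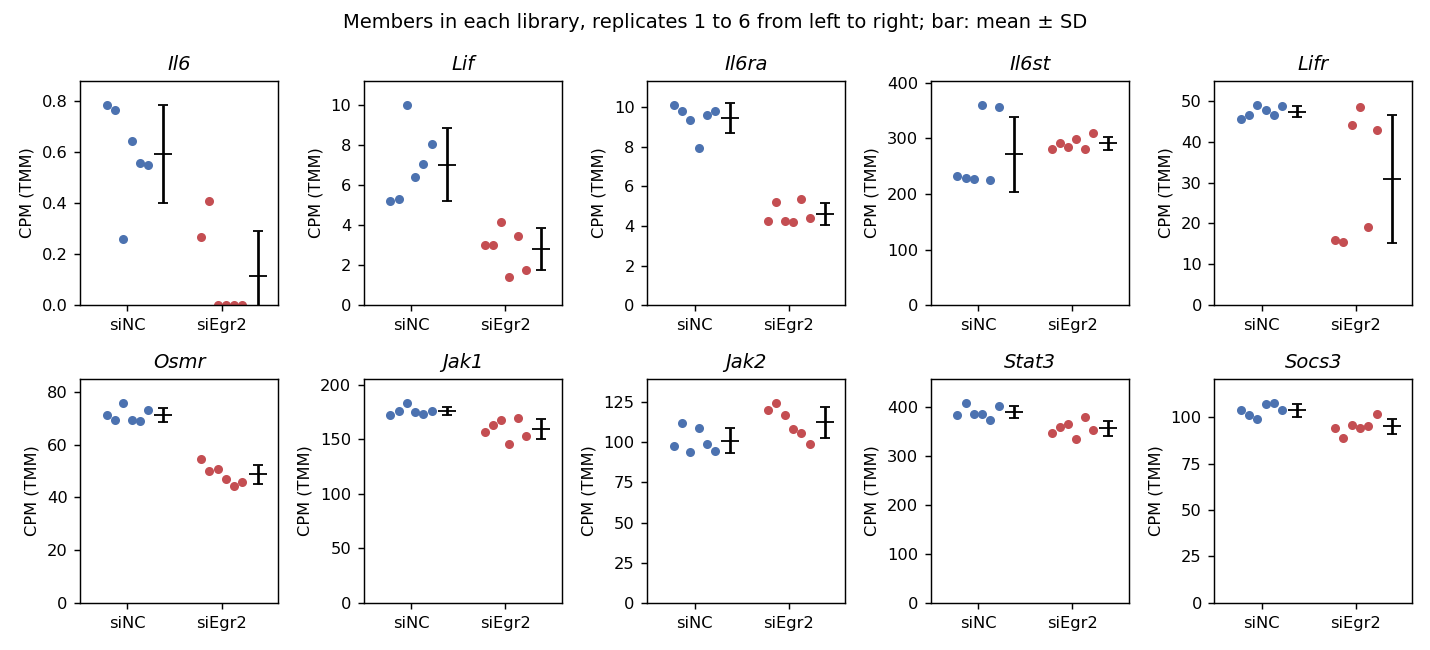
Level of each of the 10 members in CPM (TMM-scaled counts, vertical axes from 0) in the 6 siNC and 6 siEgr2 libraries, 1 point per library in the order of replicate numbers, with the mean and SD beside each group. Lif, Il6ra and Osmr lie lower in every siEgr2 library, Il6st splits within siNC and Lifr within siEgr2, and Il6 is at 0 in 4 siEgr2 libraries, where the SD bar is cut at 0.

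The promoters of the called members and of Socs3 were read from RefSeq (build GRCm38.p6), 250 bases before to 50 bases after the annotated start and on the strand of the gene. They are shown because Lif, Il6ra and Osmr carried the falls and Socs3 is the known Stat3 target among the members. Capitals mark matches to the core of a STAT site, TTCNNNGAA, or of an EGR site, GCGNGGGCG, searched on both strands. The windows lie at chr11:117969317-117969616 on the minus strand for Socs3, at chr11:4257318-4257617 on the plus strand for Lif, at chr3:89913147-89913446 on the minus strand for Il6ra and at chr15:6874264-6874563 on the minus strand for Osmr.
Socs3: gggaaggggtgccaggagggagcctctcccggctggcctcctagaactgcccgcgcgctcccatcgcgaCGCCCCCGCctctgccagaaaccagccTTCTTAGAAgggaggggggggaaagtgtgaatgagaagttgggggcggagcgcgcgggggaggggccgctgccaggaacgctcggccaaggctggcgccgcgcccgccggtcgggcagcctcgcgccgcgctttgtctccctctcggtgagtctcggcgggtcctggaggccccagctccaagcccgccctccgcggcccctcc
Lif: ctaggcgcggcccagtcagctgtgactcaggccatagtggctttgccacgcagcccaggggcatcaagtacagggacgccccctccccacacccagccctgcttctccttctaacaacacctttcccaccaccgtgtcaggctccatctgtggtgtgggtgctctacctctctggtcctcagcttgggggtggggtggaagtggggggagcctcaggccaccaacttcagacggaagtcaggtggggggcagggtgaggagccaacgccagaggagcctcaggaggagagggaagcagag
Il6ra: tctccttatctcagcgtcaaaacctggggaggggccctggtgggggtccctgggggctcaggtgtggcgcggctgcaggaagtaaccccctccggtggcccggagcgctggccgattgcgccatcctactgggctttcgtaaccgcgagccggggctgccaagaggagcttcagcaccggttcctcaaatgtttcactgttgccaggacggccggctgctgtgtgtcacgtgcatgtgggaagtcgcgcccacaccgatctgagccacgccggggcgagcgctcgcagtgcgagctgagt
Osmr: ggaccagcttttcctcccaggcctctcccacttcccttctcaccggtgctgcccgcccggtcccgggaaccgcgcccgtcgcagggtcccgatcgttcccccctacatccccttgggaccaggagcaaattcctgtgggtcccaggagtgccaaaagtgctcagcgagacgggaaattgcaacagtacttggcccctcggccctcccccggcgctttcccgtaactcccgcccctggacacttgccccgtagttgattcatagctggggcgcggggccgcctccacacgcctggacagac
The Socs3 window held 1 STAT core from -154 to -146 relative to the start and 1 EGR core from -181 to -173, which do not overlap. The windows of Lif, Il6ra and Osmr held neither. Among the windows of the other members, 1 of the 2 Lifr windows held an EGR core, from -91 to -83, and those of Il6, Il6st, Jak1, Jak2 and Stat3 held no match. Of all 32851 RefSeq windows of this length, 8.3% held the STAT core and 5.55% the EGR core. These are matches of letters within a short window and not sites of binding. The GENCODE M21 annotation has Socs3, Osmr and Lifr begin further upstream. Their windows lie inside those genes, and the matches given for them hold for the RefSeq starts only.

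Lif encodes leukemia inhibitory factor. It lies on chromosome 11 from 4257557 to 4272514 (GRCm38, GENCODE M21, as for all positions of genes given here). In the order of replicate numbers, its level was 5.20, 5.31, 9.99, 6.41, 7.03 and 8.07 CPM in siNC and 3.02, 3.01, 4.14, 1.42, 3.46 and 1.75 CPM in siEgr2. Every siEgr2 library lay below every siNC library, and the spread within both groups was wide. The mean fell by 59.8%, a log2 fold change of -1.32 (standard error 0.24, edgeR QL adjusted p = 0.00096). It rested on 174 to 337 counts in a siNC library and on 18 to 67 in a siEgr2 library. This was the largest change among the tested members.

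Il6, on chromosome 5 from 30013114 to 30019981, encodes the cytokine that gives the family its name, and it was close to the limit of detection. It had 27, 25, 8, 22, 17 and 23 counts in siNC and 4, 5, 0, 0, 0 and 0 counts in siEgr2. The sum was 122 counts in siNC and 9 in siEgr2, which is 0.634 and 0.113 CPM when the libraries of a group are pooled without scaling. The lowest siNC library, at 0.258 CPM, lay under both siEgr2 libraries with counts, at 0.269 and 0.407 CPM, so the groups overlapped. A count of 0 allows a level of up to 3 counts, which is 0.185 to 0.384 CPM in the siEgr2 libraries and under the siNC mean of 0.593 ± 0.192 CPM (SD, n = 6). This limit covers counting error only. The difference in mean log2(CPM + 0.5) was -0.86, a scale that understates the change of a gene this low, and the two-sided exact permutation test gave p = 0.00649 over all assignments of 6 against 6, where the smallest possible p is 0.00216. Il6 failed the filter on low counts, which asks for about 0.441 CPM in 6 libraries. Fitted without any filter, it had a log2 fold change of -2.32 (edgeR QL adjusted p = 0.059). Its call across all genes depended on single libraries, since it was called when siEgr2 replicate 1 (-2.75) or replicate 2 (-3.15), the ones with its counts, was left out. Il6 was thus lower in siEgr2 by the test of the single gene, and the size of the difference is poorly determined at this depth.

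The receptor chains behaved differently from each other. Il6ra, which binds Il6, lies on chromosome 3 from 89864059 to 89913196. Its level was 10.1, 9.80, 9.38, 7.96, 9.62 and 9.79 CPM in siNC and 4.23, 5.21, 4.26, 4.19, 5.38 and 4.39 CPM in siEgr2. The groups were separated by a clear gap. Il6ra fell by 51.4%, a log2 fold change of -1.04 (standard error 0.12, edgeR QL adjusted p = 8.72e-06). The annotated antisense gene Gm42809 shares 242 of its 8642 merged exonic bases, and reads in that stretch cannot be assigned to one of the pair, since the strand setting of the counting is not given in the sources used here.

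Osmr, the chain that recognizes oncostatin M, lies on chromosome 15 from 6813577 to 6874969. It measured 71.1, 69.1, 75.9, 69.1, 69.1 and 73.0 CPM in siNC and 54.4, 50.1, 50.7, 46.9, 44.3 and 45.8 CPM in siEgr2. Both groups were tight and did not overlap. Osmr fell by 31.5%, a log2 fold change of -0.55 (standard error 0.056, edgeR QL adjusted p = 3.53e-06), close to the fold threshold of 0.5. The 95% interval of this change ran from -0.66 to -0.43. Over the alternative settings tried, the log2 fold change of Osmr lay between -0.73 and -0.52 and kept its call. The summed astrocyte markers given above moved in the same direction as Lif, Il6ra and Osmr, and their part in these falls was not tested. Nor was that of the fibroblast and pericyte markers, of which 2 of 6 were called lower.

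Lifr, the chain for Lif and ciliary neurotrophic factor, on chromosome 15 from 7090614 to 7197489, split within the siEgr2 group. It measured 45.5, 46.6, 49.0, 47.9, 46.6 and 48.7 CPM in siNC and 16.0, 15.4, 44.0, 48.6, 19.2 and 42.8 CPM in siEgr2. Replicates 1, 2 and 5 of siEgr2 lay far below all siNC libraries, while replicates 3, 4 and 6 lay at or just under the siNC range. The low libraries held 150 to 238 Lifr counts and the other siEgr2 libraries 439 to 712. The log2 fold change of -0.61 (95% interval -1.26 to 0.051, edgeR QL adjusted p = 0.192) was not called. The single-gene exact permutation test on log2(CPM + 0.5) gave p = 0.0152, two-sided. A mean of the siEgr2 group, 31.0 ± 15.7 CPM (SD, n = 6), describes none of its libraries.

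Il6st, the shared chain gp130, on chromosome 13 from 112464070 to 112510086, split in the other group. In siNC it measured 232 CPM in replicate 1, 230 in replicate 2, 226 in replicate 3, 360 in replicate 4, 225 in replicate 5 and 357 in replicate 6. In siEgr2 the values were 281, 292, 285, 298, 281 and 311 CPM. The siEgr2 libraries lay together, between the 4 low and the 2 high siNC libraries. The log2 fold change was 0.10 with a 95% interval of -0.20 to 0.40 (edgeR QL adjusted p = 0.672), and no difference between the groups was detectable. Scaled by library size only, the value was -0.083, and with 1 siNC library left out it was 0.20 or 0.19 without replicate 4 or 6 and 0.053 to 0.060 without any of the others, never with a call. The splits of Lifr and Il6st fell in different libraries and different groups.

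Of the receptor-bound kinases Jak1 and Jak2, neither was called, and Jak1 passed the adjusted p. Jak1, on chromosome 4 from 101152367 to 101265282, measured 172, 176, 184, 175, 173 and 176 CPM in siNC and 156, 163, 167, 146, 169 and 153 CPM in siEgr2. Every siEgr2 library was lower, and the mean fell by 9.54% (log2 fold change -0.14, standard error 0.041, edgeR QL adjusted p = 0.0199), under the fold threshold. Jak2, on chromosome 19 from 29251828 to 29313080, measured 97.5, 112, 93.8, 109, 98.8 and 94.8 CPM in siNC and 120, 124, 117, 108, 106 and 98.9 CPM in siEgr2. The groups overlapped, and the log2 fold change of 0.15 (edgeR QL adjusted p = 0.0969) was not called and was -0.028 when scaled by library size only.

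The balance of the kinases was also taken within each library, where the scaling between libraries cancels apart from the added 0.5 CPM. The log2 ratio of Jak1 to Jak2 was 0.80 ± 0.12 in siNC and 0.51 ± 0.12 in siEgr2 (SD, n = 6). The difference of -0.30 passed the two-sided exact permutation test (p = 0.00433, and 0.013 after Benjamini-Hochberg adjustment over the 3 ratios examined). The groups met at their edges, the lowest siNC library at 0.65 and the highest siEgr2 library at 0.68. Under the alternatives the difference lay between -0.35 and -0.26.

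Stat3, the transcription factor of the axis, on chromosome 11 from 100885098 to 100939540, fell by 8.58%, under the fold threshold. It measured 383, 408, 385, 385, 374 and 401 CPM in siNC and 346, 358, 366, 335, 378 and 353 CPM in siEgr2, where only replicate 5 reached into the siNC range. The log2 fold change was -0.13 (standard error 0.035, edgeR QL adjusted p = 0.0154). Socs3, the feedback inhibitor induced by Stat3, on chromosome 11 from 117966079 to 117970047, measured 104, 101, 98.9, 107, 108 and 104 CPM in siNC and 94.1, 88.6, 96.1, 94.0, 95.5 and 102 CPM in siEgr2. Only siEgr2 replicate 6 overlapped with siNC. Its log2 fold change was -0.13 (standard error 0.042). The edgeR QL adjusted p of 0.0434 lay close to 0.05 and stayed under it in 9 of 23 alternatives, against 22 of 23 for Jak1 and 23 of 23 for Stat3. One of these alternatives, without a fold threshold, is the same fit and keeps the same p by construction. Socs3 and Stat3 had the same small difference. Their log2 ratio within a library was -1.90 ± 0.082 in siNC and -1.90 ± 0.086 in siEgr2 (exact permutation test, p = 0.963), with ranges that nearly coincided. A ratio of this kind shows only that the RNAs of Socs3 and Stat3 did not shift against each other by more than their spread.

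**Figure D2:**
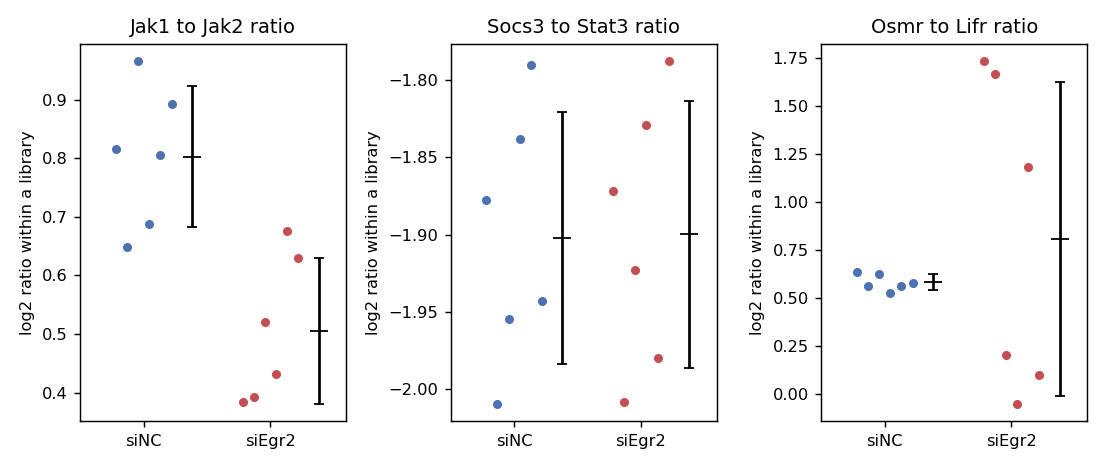
Log2 ratio of 2 members within each library (vertical axes, not from 0) for Jak1 to Jak2, Socs3 to Stat3 and Osmr to Lifr, 1 point per library in the order of replicate numbers, with mean and SD. Jak1 to Jak2 lies lower in siEgr2 with a slight overlap, Socs3 to Stat3 covers the same range in both groups, and Osmr to Lifr spreads from -0.051 to 1.74 in siEgr2.

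The Osmr to Lifr ratio, which sets the oncostatin M chain against the Lif chain, had a log2 value of 0.58 ± 0.042 in siNC and 0.81 ± 0.82 in siEgr2 (SD, n = 6; exact permutation test, p = 0.483). In siNC it stayed between 0.53 and 0.64. In siEgr2 it was 1.74, 1.67 and 1.18 in replicates 1, 2 and 5 and 0.20, -0.051 and 0.097 in replicates 3, 4 and 6, so that every siEgr2 library fell outside the siNC range, on either side of it. The high values are those of the libraries with low Lifr.

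To compare levels between genes, CPM was divided by the length of the merged exons in GENCODE M21. In siNC the order was Stat3 with 40.9 CPM per kb, Socs3 with 35.9, Il6st with 24.5, Jak1 with 24.4, Jak2 with 20.1, Osmr with 5.88, Lifr with 4.40, Lif with 1.61, Il6ra with 1.09 and Il6 with 0.244. Neighbors in this order did not overlap over the libraries except Il6st with Jak1, and Il6st also reached the range of Jak2. Il6st was thus above Osmr, Lifr and Il6ra, the receptor chains among the members, in every library, and the transcripts of Stat3 and Socs3 led the list. In siEgr2 the libraries of Lif (0.327 to 0.951 CPM per kb) overlapped with those of Il6ra (0.484 to 0.622), and those of Osmr (3.66 to 4.50) with those of Lifr (1.43 to 4.51). Jak1 (20.2 to 23.4) also overlapped with Jak2 (19.7 to 24.7), which had the higher mean there, and the lowest Stat3 library met the highest Socs3 library at 35.2. The merged length counts every annotated exon, so a gene with long rarely used exons is placed too low.

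**Figure D3:**
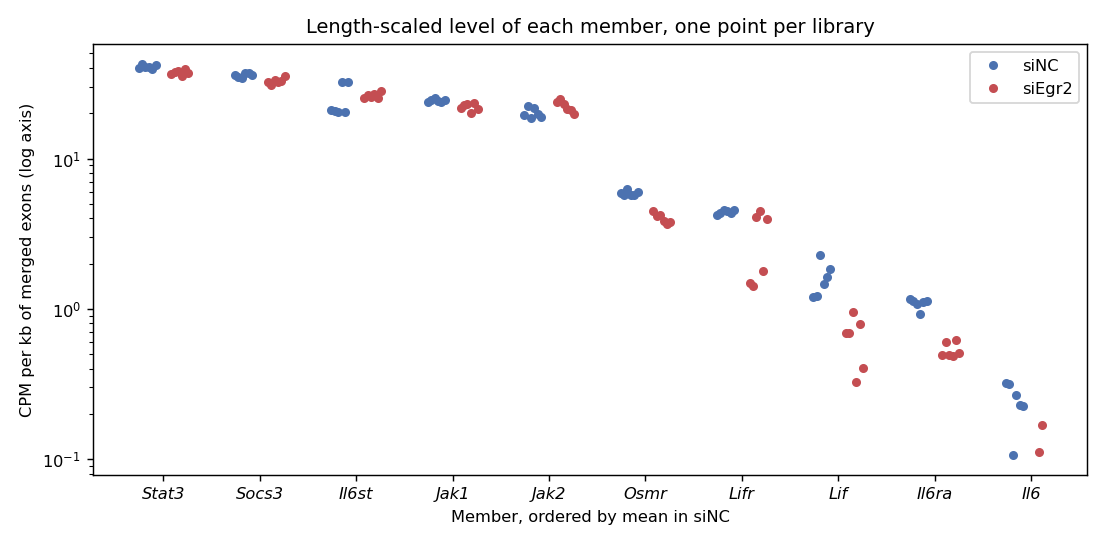
Level of each member in CPM per kb of merged exons (vertical log axis) in siNC and siEgr2, 1 point per library, ordered by the siNC mean. Stat3, Socs3, Il6st, Jak1 and Jak2 lie at or above 18.6 CPM per kb in every library, all other members at or below 6.26, and the 4 siEgr2 libraries with no Il6 count cannot be drawn on a log axis.

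The rest of the pathway was read from a list of 36 further genes, of which 27 were tested. Of these 5 were called lower and 0 higher, where 5.08% and 2.63% of all tested genes were, and the median log2 fold change was 0.018. The called genes were Clcf1, Cntf, Il11ra1, Stat5a and Stat6. Clcf1, a cytokine that acts through the receptor of ciliary neurotrophic factor, fell from 17.1 ± 3.55 to 6.82 ± 1.78 CPM, without overlap (log2 fold change -1.31, adjusted p = 5.14e-05). Cntf, made by astrocytes, fell from 10.6 ± 2.25 to 6.66 ± 1.30 CPM (log2 fold change -0.68, adjusted p = 0.00633). Il11ra1, the receptor chain for interleukin 11, fell from 16.65 ± 1.79 to 10.03 ± 1.71 CPM (-0.72, adjusted p = 0.000325). These p-values come from the edgeR QL fit across all genes. Cntfr, the receptor chain for ciliary neurotrophic factor, stood at 33.4 ± 2.72 CPM in siNC and 34.45 ± 2.68 CPM in siEgr2, a log2 fold change of 0.042 with a 95% interval of -0.11 to 0.19. Il31ra, at 0.871 ± 0.756 CPM in siNC and 1.38 ± 0.674 CPM in siEgr2, was not called at 0.66 (edgeR QL adjusted p = 0.633). Osm, the ligand of Osmr, had no count in any of the 12 libraries, and Il27 and Il31 had none either. Taking members and further genes as 1 set, 3 of 4 tested ligands and 3 of 7 tested receptor chains were called lower, against 5.08% of all tested genes, and whether these roles differ from the others was not tested. The astrocyte markers, 5 of 9 called lower, moved in the same direction, and their part in these falls was not tested.

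Neither of the other kinases, Jak3 and Tyk2, was called. Of the 6 tested STAT genes, Stat5a fell from 13.1 ± 1.09 to 7.77 ± 1.68 CPM (log2 fold change -0.75, edgeR QL adjusted p = 0.00052) and Stat6 from 8.75 ± 0.817 to 6.04 ± 1.26 CPM (-0.53, edgeR QL adjusted p = 0.0129). Stat5a lies next to Stat3 on the opposite strand, and their annotated exons share 72 bases, so a few reads of the more abundant Stat3 may be counted for it or the reverse. None of the 8 SOCS genes was called, and only Socs3 passed the adjusted p. Among 7 tested PIAS and phosphatase genes 0 were called, while Ptpn2, a phosphatase that acts on STAT proteins (log2 fold change -0.41), and Ptpn11 (-0.10) passed the adjusted p downward. Of all tested genes 7.72% were called and 19.9% passed the adjusted p alone.

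**Figure D4:**
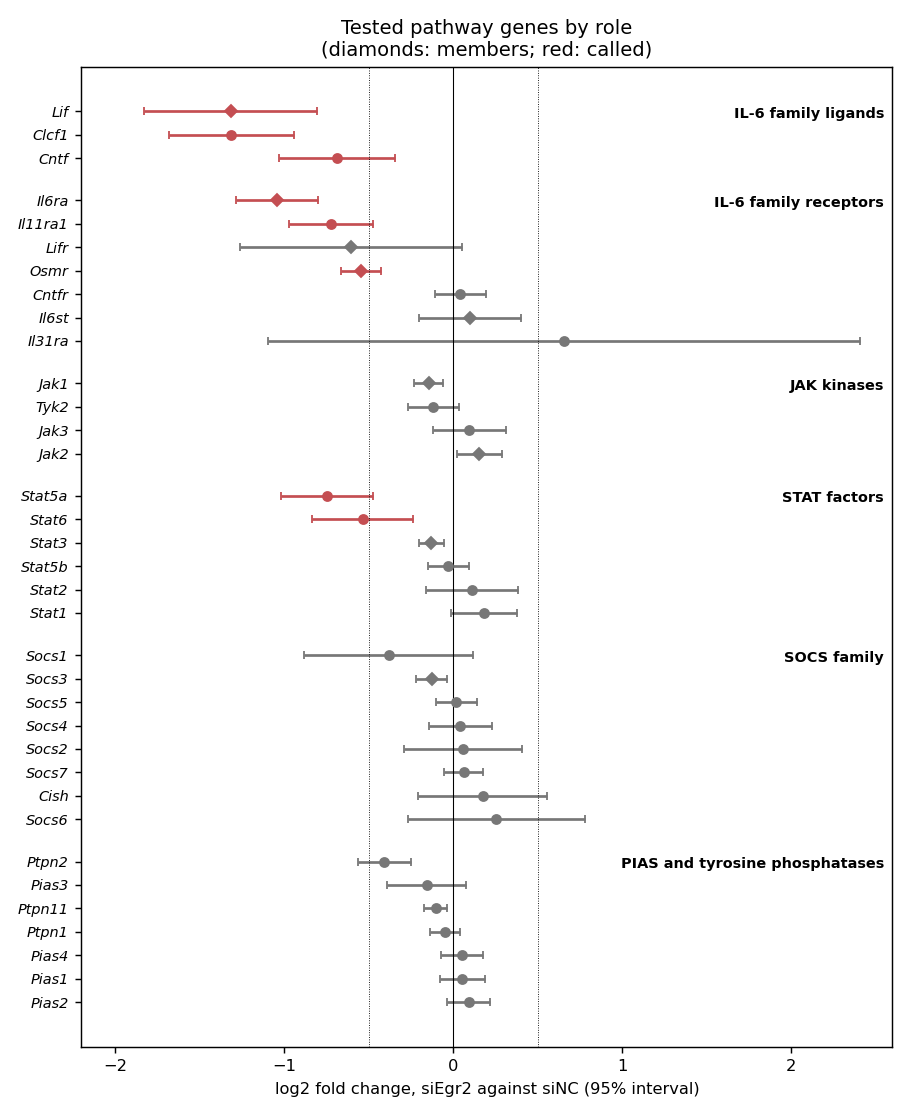
Log2 fold change of tested pathway genes, siEgr2 against siNC, with its 95% interval (horizontal axis), grouped by role, with members as diamonds, called genes in red and dotted lines at the fold threshold of 0.5. The called genes are ligands, receptor chains, Stat5a and Stat6, and none lies to the right of 0.

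Genes known from other systems as targets of Stat3 were counted as a further list. Of 25 such genes 24 were tested, 8 were called lower and 0 higher, against 5.08% and 2.63% of all tested genes. The adjusted p alone was passed by 12 downward and 2 upward, against 19.9% of all tested genes in either direction. Their median log2 fold change was -0.28. The summed astrocyte markers were lower in the same libraries, and their part in this count was not tested. The list was written with the falls of Saa3, Lcn2 and Gfap already known, and its count is not independent evidence of a direction. The called genes were the acute-phase genes Saa3 (log2 fold change -3.75) and Lcn2 (-2.12), the protease inhibitors Timp1 (-1.17) and A2m (-0.82), the transcription factor Cebpd (-0.71), the adhesion molecule Icam1 (-0.56), the intermediate filament Gfap (-0.56) and the receptor chain Il4ra (-0.52). Gfap is also one of the astrocyte markers. Without it, 7 of 23 were called lower. The genes that were higher by the adjusted p were Birc5, an inhibitor of apoptosis expressed in dividing cells, with a log2 fold change of 0.35, and Myc, with 0.34, neither past the fold threshold. Junb (-0.38) and Mcl1 (-0.24) passed the adjusted p downward, and Bcl3 (-0.20) and Pim1 (-0.27) did not. Neither did Serpina3n (-0.046, edgeR QL adjusted p = 0.309), at 1822 ± 27.3 CPM in siNC and 1765 ± 78.9 CPM in siEgr2. The targets thus did not move as 1 group.

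For each called member, the 3 tested genes with the most similar pattern were taken, by the root mean square difference of log2(CPM + 0.5) over the 12 libraries after centering. The pattern of Osmr was nearest to those of Msn, which links actin to the membrane, at 0.0544, Scd1, a fatty acid desaturase, at 0.0598, and Fabp7, a fatty acid binding protein of radial glia and astrocytes, at 0.0605. Il6ra was nearest to Igfbp5 (0.127), Abca1 (0.135) and S1pr3 (0.136), and Lif to Pctp (0.195), Timp1 (0.195) and Ptgr2 (0.225). Pctp was low, at 1.73 CPM in siNC and 0.472 CPM in siEgr2, where the added 0.5 CPM damps a change. Its log2 fold change was -1.85, against -1.32 for Lif. The distances grow with the scatter of the member itself, from Osmr to Lif.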

How the data were processed

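The authors extracted total RNA with TRIzol, sequenced 50-base Illumina reads and deposited raw counts per gene symbol, without normalization. The submitters' processing notes name the build mm10. The aligner, counter, annotation, strand setting and any poly(A) selection are not given in the sources used here. Libraries were grouped by their labels, 6 against 6. The 1 blank entry was left out. edgeR 4.0.16 (R 4.3.3) was used for filtering (filterByExpr), TMM scaling, the robust quasi-likelihood (QL) fit on group alone, and Benjamini-Hochberg adjustment over 16600 genes. Single genes and ratios used a two-sided exact permutation test on log2(CPM + 0.5). The procedure was tested on simulated data. Members, gene lists and tests were chosen with earlier results of these data known. The named genes were the members, Egr2, the called pathway and Stat3 target genes, tested ligands and receptors, and for each called member the 3 genes with the smallest root mean square difference. Other named genes were chosen after their values were seen. Alternatives were RLE, upper-quartile and library-size scaling, DESeq2 1.42.0, limma-voom (limma 3.58.1), 2 other filters, thinning, structural RNA genes left out, no fold threshold, a replicate block, 2 other pseudocounts for ratios, and each library left out. Depth was 8034251 to 39383014 counts, with the lower siEgr2 depth limiting genes of few counts. The counts of pathway genes include 1 gene that is not reported here.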

Additional observations from a re-analysis of the deposited data

Results flagged for a closer look

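Il6ra in siNC replicate 4 had a level of 7.96 CPM, while the other siNC libraries lay between 9.38 and 10.1 CPM. This library stood apart by Dixon's ratio of gap to range, 0.658, which is above the 95% critical value for 6 samples. It lies nearer to the siEgr2 libraries than the others do and still above all of them, and Il6ra was called with and without it. Chance marks about 1 in 20 groups, and 28 groups of values were examined in this way.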

How the results depend on the processing

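Lif, Il6ra and Osmr were called under all 23 alternatives, Lif with log2 fold changes of -1.48 to -1.18, Il6ra of -1.09 to -1.02 and Osmr of -0.58 to -0.52 with each of the 12 libraries left out in turn. Dropping the fold threshold left the fit and its p-values unchanged, so it could not lose a call. With no fold threshold 6 members were called, since Jak1 (-0.14), Stat3 (-0.13) and Socs3 (-0.13) then counted. So did 14 of the Stat3 targets and 3300 of all genes. The adjusted p of Jak1 was 0.0511 without siNC replicate 3. That of Socs3 reached 0.0984 and stayed under 0.05 in 9 of 23 alternatives. Scaling by library size only called 1974 genes, moved the median of all genes from 0.0046 to -0.18 and the share of calls that were lower from 65.9% to 88%, and reversed Il6st (-0.083) and Jak2 (-0.028), both above that median. Stat3 was then at -0.31, Jak1 at -0.33 and Socs3 at -0.31. Without any filter Il6 had -2.32 (edgeR QL adjusted p = 0.059), against exact permutation differences of -0.99 to -0.81 with 1 library left out. The Socs3 to Stat3 difference, 0.0021, turned to -0.0092 after thinning and lay between -0.020 and 0.025 with 1 library left out, around 0. With 1 library left out, 1114 to 1339 genes, 3 to 4 members, 4 to 6 further pathway genes and 6 to 10 targets were called, and the fourth member was Il6. The 1114 genes were those without siNC replicate 6, and thinning to the smallest total gave 1098. Same-numbered libraries showed no shared deviation, with correlations of -0.081 to 0.061. These values cannot show whether same-numbered libraries came from a common culture. A replicate block gave 1124 called genes in place of 1281 and again 3 members. The siEgr2 depth limits Il6, where 3 counts are up to 0.384 CPM. The causes of these shifts were not tested.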

Other observations

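Lifr and Il6st each showed a step inside 1 group, and how common such steps are was counted after these values were seen. A step was taken as a gap over 0.5 on the log2 scale between neighboring libraries of a group that is also more than 2 times the range on either side of it, with at least 2 libraries on each side. Among 10940 genes whose mean log2 CPM reached 3, 1.45% had such a step in siNC and 1.22% in siEgr2, or 2.47% in either group. Il6st had a gap of 0.62 between siNC replicates 4 and 6 and the rest, and Lifr a gap of 1.14 between siEgr2 replicates 1, 2 and 5 and the rest. The labels give no batch, date or culture that sets these libraries apart, and no explanation was tested.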
